A study of Mus musculus with 37 samples.

Results

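Hearts of embryos with 1 working allele each of Nipbl and Isl1 were compared with hearts of wild-type embryos at embryonic day E10.5 by bulk paired-end RNA sequencing. The comparison took 19 of the 37 libraries of the series, chosen by the genotype in their titles: 9 double heterozygous libraries (Nipbl +/-; Isl1 +/-) and 10 wild-type libraries (Nipbl +/+; Isl1 +/+). Both groups came from 1 cross, of Stra8-iCre; Nipbl Flox/+ fathers with Isl1 Cre/+ mothers. Stra8-iCre is a Cre recombinase of the male germ line. The submitters name the alleles in sperm as Nipbl Flox, which they count as wild-type, and Nipbl FIN, a null allele, and do not mention the unmodified Nipbl allele of Flox/+ fathers. Wild-type embryos could therefore carry Nipbl Flox or the unmodified allele, while double heterozygous embryos carried Nipbl FIN. The Isl1 allele they inherited holds a Cre gene, so every double heterozygous embryo also carried an Isl1 Cre that wild-type embryos lacked. Which embryos inherited Stra8-iCre, and which shared a litter, is not given in the sources used here, so p-values measure the spread between these libraries.

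NIPBL loads cohesin, the ring-shaped complex that extrudes chromatin loops and holds sister chromatids together, onto DNA. Loss of 1 NIPBL allele is the most frequent cause of Cornelia de Lange syndrome, in which heart defects are common and most expression changes are small. ISL1 is a LIM-homeodomain transcription factor of the second heart field, the progenitor population that adds the right ventricle, outflow tract and much of the atria to the heart tube. Its level falls as these cells differentiate. At this stage the ventricles form trabeculae, the cushions fill with mesenchyme, and the epicardium spreads over the surface of the heart.

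Total counts per library, in mega-counts, ran from 23.4 to 38.1 in wild-type (median 34.1) and from 28.0 to 43.0 in double heterozygous hearts (median 34.3). Between 16632 and 17683 genes had at least 1 count. Each label holds a set number, whose meaning is not given. Sets 2, 5 and 6 held both genotypes, with 7 wild-type and 8 double heterozygous libraries in all. Set 1 held 3 wild-type libraries and set 7 a single double heterozygous library, replicate 2. With set number as a covariate, fitted differences therefore rest on sets 2, 5 and 6, while levels are given over all 19 libraries as CPM, counts scaled to library size with trimmed-mean (TMM) factors. The largest axis of variation held 29.7% of the variance of log2 CPM. Wild-type libraries lay at −10.6 ± 21.6 on it (SD, n = 10) and double heterozygous ones at 11.8 ± 23.7 (SD, n = 9). The mean level of cytosolic ribosomal protein genes was 9.21 ± 0.39 log2 CPM in wild-type and 8.87 ± 0.43 in double heterozygous libraries, and the part of this shift in the results below was not tested beyond the values given beside them. Xist exceeded 100 CPM in 7 of 10 wild-type and 7 of 9 double heterozygous libraries, so both groups were of mixed sex.

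The targeted genes were examined first. Nipbl ran from 47.9 to 77.5 CPM in wild-type hearts (median 56.8) and from 28.1 to 50.6 CPM in double heterozygous hearts (median 36.5). The groups overlapped in 1 double heterozygous library, the single one of set 7, and the other 8 were lower than any wild-type library. The mean fell from 59.7 ± 9.56 (SD, n = 10) to 37.5 ± 7.11 CPM (SD, n = 9). The fitted log2 change, which rests on sets 2, 5 and 6, was −0.78 (SE 0.07), and −0.67 with no set term. The adjusted p was 3.28e-05 in the edgeR quasi-likelihood test, with Benjamini-Hochberg correction over all genes. Sets 2, 5 and 6 taken singly gave −0.90, −0.68 and −0.76. Nipbl had the smallest p of all genes tested. Isl1 was low in whole hearts, from 5.06 to 12.9 CPM in wild-type (median 6.85) and from 4.71 to 15.0 CPM in double heterozygous libraries (median 8.34). These ranges overlapped widely, and the group with 1 disrupted Isl1 allele had the higher mean. Isl1 had a fitted log2 change of 0.36 with an SE of 0.24 and was not called (adjusted p 0.483, edgeR). It exceeded the wild-type mean in 7 of 9 libraries, so the Isl1 genotype could not be checked from these counts and was taken from the labels. Where reads fall on the disrupted allele was not analysed here.

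Of 14520 genes tested, 279 differed between the genotypes at an adjusted p under 0.05 (1.92%, edgeR). Of these, 182 were higher (1.25%) and 97 lower (0.668%) in double heterozygous hearts. Most changes were moderate: the median absolute log2 change was 0.57, the smallest 0.23, and the values ran from −1.91 to 2.12. A log2 change of 1 or more was reached by 27 of the higher and 18 of the lower genes. In 277 of the 279 genes the difference had the same direction in sets 2, 5 and 6, and in 239 all 9 double heterozygous libraries lay on the same side of the wild-type mean. These sets, which hold 8 of the 9 double heterozygous libraries, took part in choosing the genes. Neither count is therefore a separate check, and the shares over all tested genes are not given. The groups did not overlap in 50 of the called genes, 40 higher and 10 lower, against 57 of all genes tested (0.393%), 45 higher (0.31%) and 12 lower (0.0826%).

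**Figure D1:**
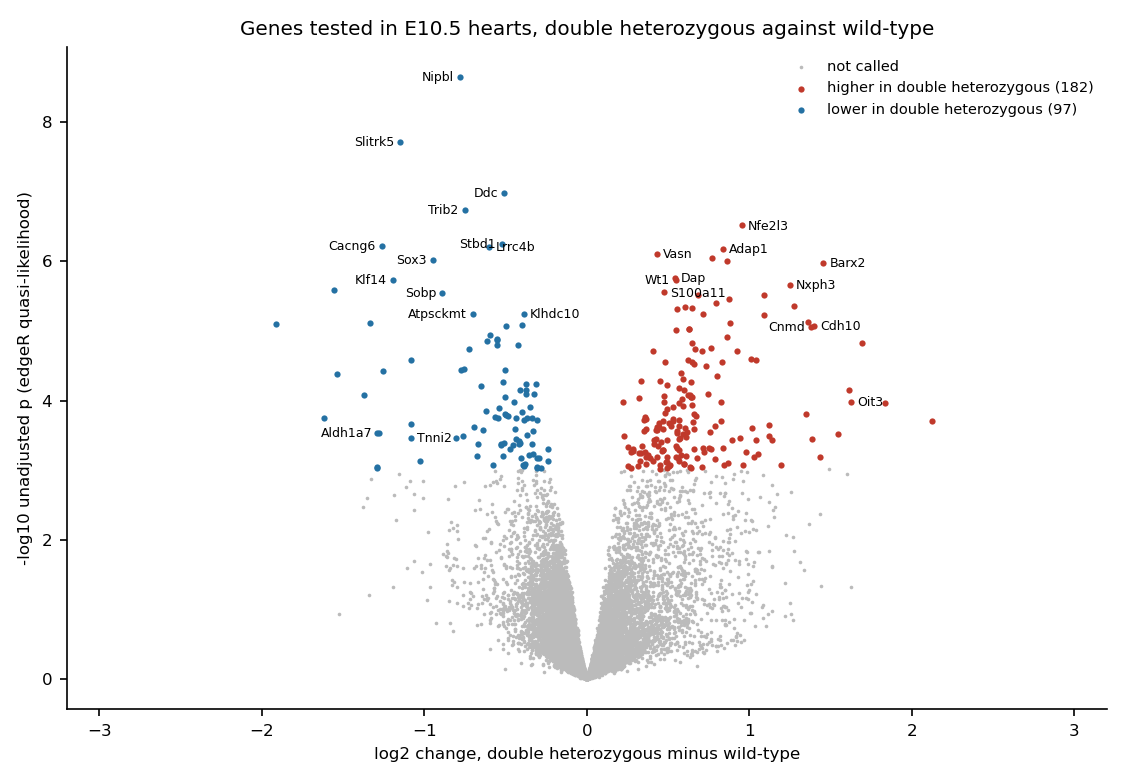
Each point is 1 of 14520 genes, with the log2 change (double heterozygous minus wild-type) on the x axis and −log10 of the unadjusted p of the edgeR quasi-likelihood test on the y axis. The 182 genes called higher are red and the 97 called lower blue at an adjusted p under 0.05, and Nipbl stands at the top with a log2 change of −0.78.

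The number of calls depended on set 5, which held 2 wild-type and 5 double heterozygous libraries. Without it 3 genes passed, Nipbl, Slitrk5 and Barx2, and without set 2 or set 6 the counts were 62 and 131. Leaving a set out also gave a check in libraries that had not chosen the genes. All 62 genes called without set 2 had the same direction within set 2, where 51.1% of all tested genes did. The 3 genes called without set 5 had the same direction within it (61.1% of all tested genes). Of the 131 called without set 6, 127 did so within set 6, which is 96.9% against 71.5% of all tested genes. Set 6 held 2 wild-type libraries and 1 double heterozygous library, replicate 7, so this last check has no replicate in that group.

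Sets 1 and 7 gave a further comparison, since neither enters the fitted differences. The set 7 double heterozygous library was set against the mean of the 3 wild-type libraries of set 1. Of the 279 called genes, 251 shifted in the fitted direction (90%), among them 169 of 182 higher genes (92.9%) and 82 of 97 lower genes (84.5%). Over all tested genes the share was 69.3%. The median shift of the called genes in the fitted direction was 0.71 in log2 CPM, against a median fitted change of 0.57. Over all tested genes these medians were 0.22 and 0.11. Nipbl itself shifted by −0.11 in this comparison, against a fitted change of −0.78. The comparison sets 1 library against 3 from another set, so genotype and set cannot be told apart in it. It has no replicate check.

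**Figure D2:**
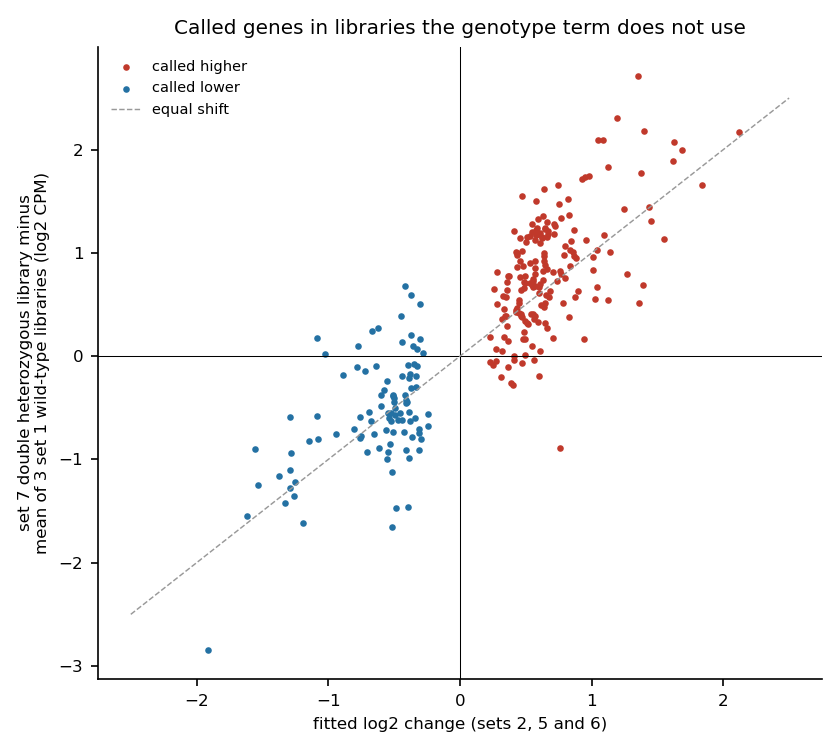
Each point is 1 of the 279 called genes, with the fitted log2 change from sets 2, 5 and 6 on the x axis and the log2 CPM of the set 7 double heterozygous library minus the mean of 3 set 1 wild-type libraries on the y axis. The dashed line marks equal values. Red genes (called higher) lie mostly in the upper right, 169 of 182, and blue genes (called lower) mostly in the lower left, 82 of 97.

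Among the lower genes after Nipbl, the smallest p belonged to Slitrk5, which encodes a leucine-rich repeat membrane protein of synapses. It ran from 21.3 to 38.5 CPM in wild-type hearts (median 31.0) and from 10.3 to 19.6 CPM in double heterozygous hearts (median 14.0). The groups did not overlap, and the mean fell from 29.8 ± 5.72 (SD, n = 10) to 14.6 ± 2.67 CPM (SD, n = 9). The fitted log2 change was −1.15 (SE 0.12), with an adjusted p of 1.41e-04 (edgeR). Trib2, a pseudokinase that steers proteins to degradation, ran from 58.6 to 90.4 CPM in wild-type (median 76.5) and from 40.8 to 50.9 CPM in double heterozygous hearts (median 45.5). It changed by −0.75 (SE 0.09, adjusted p 6.55e-04, edgeR), and its double heterozygous values were tightly grouped. Klf14, a zinc-finger transcription factor, fell from 2.99 ± 0.56 (SD, n = 10) to 1.29 ± 0.31 CPM (SD, n = 9), again without overlap (−1.19, SE 0.17). Stbd1, a glycogen-binding protein, ran from 72.0 to 109 CPM in wild-type and from 55.4 to 69.4 CPM in double heterozygous hearts (−0.52, SE 0.07).

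The other lower genes named for a small p, among those whose log2 CPM averaged 1 or more, overlapped with wild-type in 1 or more libraries. They were Ddc (−0.51), the decarboxylase that completes dopamine and serotonin synthesis, Cacng6 (−1.26), a calcium channel subunit, and Lrrc4b (−0.60), a synaptic adhesion protein. Sox3 (−0.94) and Sobp (−0.89) encode nuclear proteins of neural and sensory progenitors. Atpsckmt (−0.70) encodes a methyltransferase of the ATP synthase, and Klhdc10 (−0.39) a ubiquitin ligase adaptor. For each of these 7 genes, all 9 double heterozygous libraries lay below the wild-type mean. Aldh1a7 (−1.28), an aldehyde dehydrogenase, and Tnni2 (−1.08), the fast skeletal troponin I, were named for the size of their change. Tnni2 ran from 31.3 to 82.6 CPM in wild-type and from 12.4 to 46.3 CPM in double heterozygous libraries, so its groups overlapped. Tnni2 lost its call in 5 of 19 fits with 1 library left out and Aldh1a7 in 3, with adjusted p up to 0.175 and 0.116 (edgeR).

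Among the higher genes, Barx2, a homeobox gene, ran from 0.993 to 3.19 CPM in wild-type (median 1.5) and from 3.37 to 7.55 CPM in double heterozygous hearts (median 4.92). Every double heterozygous library was above every wild-type one, and the fitted log2 difference was 1.45 (SE 0.20, adjusted p 0.00109, edgeR). Nfe2l3, a stress-related transcription factor of the cap'n'collar family, ran from 1.85 to 4.32 CPM (median 3.53) and from 5.78 to 8.91 CPM (median 7.18), also without overlap (0.95, SE 0.12, adjusted p 8.85e-04, edgeR). Cdh10, a cadherin, rose from 1.69 ± 0.59 (SD, n = 10) to 4.95 ± 0.62 CPM (SD, n = 9), and its fitted log2 change was 1.40 (SE 0.23). Myh11, the smooth muscle myosin heavy chain, rose from 3.34 ± 2.03 (SD, n = 10) to 11.2 ± 2.47 CPM (SD, n = 9). Its fitted log2 change of 1.84 (SE 0.36) came with 8 of 9 libraries above every wild-type library, because wild-type replicate 7 stood at 8.24 CPM. Without wild-type replicate 4, wild-type replicate 5 or double heterozygous replicate 7 the change of Myh11 was 1.79, 1.70 and 1.88, with adjusted p up to 0.0655 (edgeR).

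Groups also did not overlap for B3gnt7 (0.77), a glycosyltransferase of keratan sulfate, Tmem151a (0.86), a transmembrane protein, and Dap (0.54), a regulator of autophagy. The same held for Sh3tc2 (0.68), an adaptor of recycling endosomes, Cnmd (1.38), which encodes chondromodulin, and Vasn (0.43), a TGF-beta-binding membrane protein. Adap1 (0.84), Nxph3 (1.25), Tm4sf5 (1.09) and Oit3 (1.63) rose with overlap in 1 or more libraries, and Oit3 lost its call without wild-type replicate 4 or double heterozygous replicate 6 (adjusted p up to 0.0574, edgeR). S100a11 (0.47), a calcium-binding protein, ran from 71.0 to 110 CPM in wild-type and from 79.4 to 169 CPM in double heterozygous hearts, where 1 library fell below the wild-type mean. By whole gene spans, Vasn overlaps Coro7 on the other strand and Dnaja3 on the same strand. B3gnt7 overlaps Gm28626, and Ddc overlaps 1700042O10Rik, and whether exons overlap was not examined. The strand setting of the counting is not given in the sources used here, so their counts may include reads of the other gene. All 24 genes named for the smallest p, 12 in each direction, kept their call when any 1 of the 19 libraries was left out. With no set term the call of S100a11 was lost, and with a replicate block in its place those of S100a11, Ddc and Klhdc10. Without the 4 libraries highest in ribosomal protein genes that of Cnmd was lost (adjusted p 0.0653, edgeR).

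**Figure D3:**
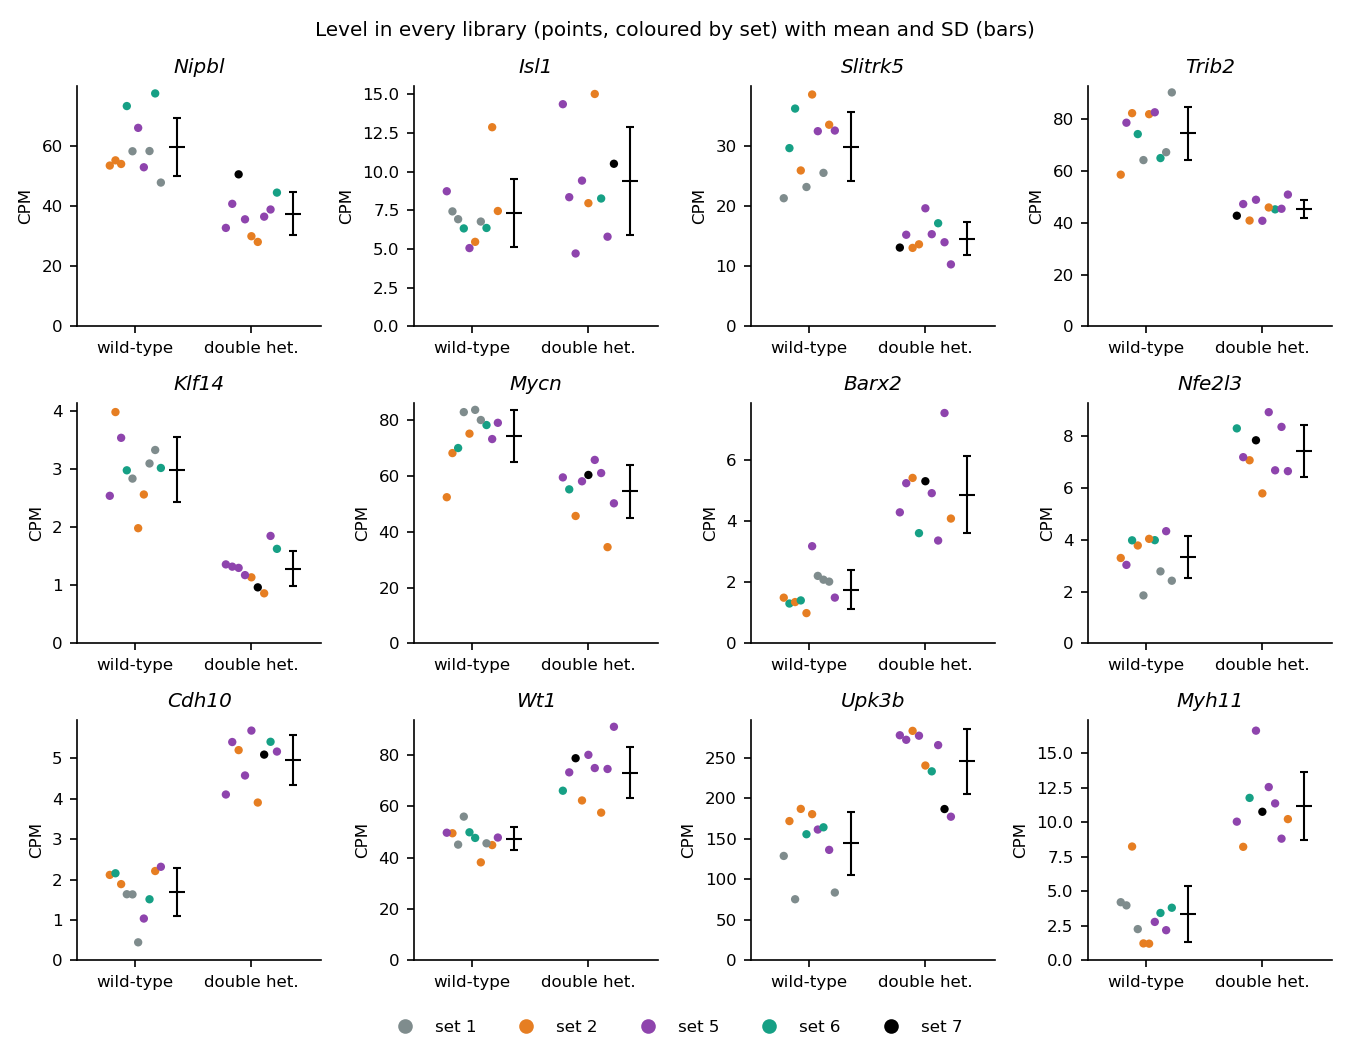
Each panel gives the CPM of 1 gene (y axis) in the 10 wild-type and 9 double heterozygous libraries, with points coloured by set and bars for the mean and SD. Slitrk5, Trib2, Klf14, Barx2, Nfe2l3, Cdh10 and Wt1 do not overlap between the groups, while Isl1 does, from 5.06 to 12.9 CPM in wild-type and from 4.71 to 15.0 CPM in double heterozygous libraries.

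Promoter sequences were examined for motifs of general factors and of ISL1. The 250 bases before each gene's start, from RefSeq on GRCm38.p6, were matched for 199 of the 279 called genes and 11410 of the 14520 tested genes. Examples of the 2 directions and of the epicardial genes described below are shown, 5′ to 3′ on the gene's strand, with matches to the 3 motifs searched in capitals. Ddc fell and its window, chr11:11898145-11898394, holds CTAATG, a sequence that LIM-homeodomain factors such as ISL1 bind, on the reverse strand. Nfe2l3 rose and its window, chr6:51432419-51432668, holds GGGCGG, the GC box, and TATAAA, the TATA box. Upk3b rose and its window, chr5:136038246-136038495, holds none of the 3.
Ddc: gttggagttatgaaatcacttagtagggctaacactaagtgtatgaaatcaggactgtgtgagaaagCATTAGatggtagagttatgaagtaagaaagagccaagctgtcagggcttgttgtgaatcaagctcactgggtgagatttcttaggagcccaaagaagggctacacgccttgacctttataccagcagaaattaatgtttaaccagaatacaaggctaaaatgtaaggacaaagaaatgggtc
Nfe2l3: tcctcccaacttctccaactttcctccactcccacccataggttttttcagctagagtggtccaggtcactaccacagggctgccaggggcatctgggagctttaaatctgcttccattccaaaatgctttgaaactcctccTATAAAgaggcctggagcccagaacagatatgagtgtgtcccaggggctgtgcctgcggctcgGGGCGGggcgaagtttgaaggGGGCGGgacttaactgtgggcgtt
Upk3b: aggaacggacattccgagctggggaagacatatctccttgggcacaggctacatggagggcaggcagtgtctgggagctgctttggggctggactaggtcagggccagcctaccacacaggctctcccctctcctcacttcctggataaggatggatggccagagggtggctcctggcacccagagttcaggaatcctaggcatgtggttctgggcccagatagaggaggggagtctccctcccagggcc

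CTAATG, on either strand, was present in 5 of 133 promoters of higher genes (3.76%) and 3 of 66 of lower genes (4.55%), against 4.1% of all tested promoters. The GC box, on either strand, was present in 59.4% and 62.1%, against 59.2%. These shares were near the background. TATAAA on the gene's strand was present in 6 of 133 promoters of higher genes (4.51%) and 7 of 66 of lower genes (10.6%), against 4.05%. The median number of CG dinucleotides was 11 in promoters of higher genes, 15.5 in those of lower genes and 15.5 in all tested promoters. Each motif was counted on its own, whether or not it overlapped another. A match is a description of these letters and says nothing about binding.

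The epicardium, the mesothelial layer that covers the heart and later gives fibroblasts and smooth muscle, was represented by markers that were all higher in double heterozygous hearts by their fitted value. All 14 markers were tested, 7 were called higher and 0 lower, against 1.92% of all tested genes called. This list, like the others, was chosen with earlier results of these data known, so its counts are not independent of them. The log2 change was above 0 in 14 of 14, with a median of 0.42, where the median over all tested genes was −0.01. In these bulk samples more epicardial cells and more RNA per cell cannot be told apart. Wt1, the zinc-finger factor of epicardial progenitors, ran from 38.1 to 55.9 CPM in wild-type (median 47.7) and from 57.5 to 90.9 CPM in double heterozygous hearts (median 74.4). The groups did not overlap (0.55, SE 0.08, adjusted p 0.00159, edgeR). Upk3b, a uroplakin of mesothelium, ran from 75.4 to 187 CPM (median 158) and from 177 to 283 CPM (median 265), with 7 of 9 libraries above every wild-type one (0.64, SE 0.12, adjusted p 0.00993, edgeR). Its call was lost without the 4 libraries highest in ribosomal protein genes (0.61, adjusted p 0.0996, edgeR), with 2 surrogate variables (0.50, adjusted p 0.0694, edgeR), and without set 2 or set 5 (0.71 and 0.54).

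The other epicardial genes called were Sema3d (0.75, SE 0.15), a secreted guidance factor, and the mesothelial genes Lrrn4 (0.58, SE 0.11) and Bnc1 (0.59, SE 0.12). Tcf21 (0.45, SE 0.10) and Tbx18 (0.36, SE 0.08), transcription factors of epicardium and its derivatives, were also called. Bnc1 lost its call without wild-type replicate 4 or 5, Tbx18 without wild-type replicate 5, and Tcf21 without wild-type replicate 4 or 5 or double heterozygous replicate 7 (adjusted p up to 0.0923, edgeR). Sema3d ran from 8.14 to 22.1 CPM in wild-type (median 16.4) and from 18.0 to 34.5 CPM in double heterozygous hearts (median 28.8). Double heterozygous replicate 8 was its low value, and the other 8 libraries lay above every wild-type one. The 7 members not called ran from 0.15 for Aldh1a1 to 0.48 for Krt19. The summed level of all 14 markers ran from 935 to 1289 CPM in wild-type (median 1064) and from 1332 to 1995 CPM in double heterozygous hearts (median 1475), so that the sums did not overlap. The number called was 7 without the 4 libraries highest in ribosomal protein genes, 3 without set 2, 4 without set 6 and 0 without set 5. It was 4 without wild-type replicate 5. The list's median stayed between 0.31 and 0.55 over these and all other settings run.

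Of 7 ventricular cardiomyocyte markers tested, 2 were called lower and 0 higher, against 0.668% of all genes called lower. The fitted log2 change of the other 5, which were not called, was also below 0, and the median of the 7 was −0.40. Mycn, which drives proliferation of compact myocardium, ran from 52.4 to 83.7 CPM in wild-type (median 76.7) and from 34.5 to 65.7 CPM in double heterozygous hearts (median 58.1). The groups overlapped, since wild-type replicate 7 was the lowest wild-type library. The fitted log2 difference was −0.50 (SE 0.09, adjusted p 0.00753, edgeR). Irx4, a homeobox gene of ventricular identity, ran from 65.2 to 137 CPM (median 99.3) and from 54.1 to 82.2 CPM (median 62.4), with a fitted difference of −0.53 (SE 0.12, adjusted p 0.0312, edgeR). Irx4 lost its call without any 1 of wild-type replicates 4, 5, 8, 9 and 10 or double heterozygous replicates 4, 5, 6, 7 and 8, with a change between −0.57 and −0.49 and adjusted p up to 0.104 (edgeR). Hey2, the Notch effector of compact myocardium, just missed the threshold at −0.40 (SE 0.10, adjusted p 0.051, edgeR). The ventricular myosin light chains Myl2 (−0.43, adjusted p 0.167) and Myl3 (−0.34, adjusted p 0.266) and the heavy chain Myh7 (−0.14, adjusted p 0.634) were not called (edgeR). The summed level overlapped, from 11323 to 17685 CPM in wild-type and from 9443 to 15580 CPM in double heterozygous hearts. The list had 0 calls without set 2, without set 5 and with a replicate block in place of the set term. Its median ran from −0.44 to −0.15 over the settings run, the smallest with 2 surrogate variables, and was −0.22 without set 5.

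Of 27 sarcomere and calcium handling genes, Sln alone was called (3.7%, against 1.92% of all genes), and the median was −0.04. Sln encodes sarcolipin, the inhibitor of the sarcoplasmic reticulum calcium pump that marks atrial muscle. It was near the limit of detection, from 0 to 1.64 CPM in wild-type (median 0.60) and from 0.821 to 4.43 CPM in double heterozygous hearts (median 2.14). The fitted log2 change of 2.12 (SE 0.45, adjusted p 0.0205, edgeR) was uneven, with 1.51, 3.81 and 1.32 in sets 2, 5 and 6. Without wild-type replicate 5 it was 1.95 with an adjusted p of 0.0752 (edgeR), and the call was also lost with a replicate block (adjusted p 0.0539, edgeR) and without set 2, 5 or 6. The other 6 atrial markers were not called, among them Nr2f2 (0.38, adjusted p 0.396), Kcna5 (0.45, adjusted p 0.293) and Myl7 (0.06, adjusted p 0.841, edgeR). Of 20 cardiac transcription factors only Hopx, a small homeodomain cofactor, was called (−0.39, SE 0.08), which is 5% against 1.92%. It fell from 171 ± 26.3 (SD, n = 10) to 128 ± 13.7 CPM (SD, n = 9), and without wild-type replicate 4 its adjusted p was 0.0893 (edgeR). Nkx2-5 (−0.26, adjusted p 0.121), Gata4 (0.11, adjusted p 0.56), Tbx5 (−0.03, adjusted p 0.848) and Mef2c (−0.13, adjusted p 0.462) were not called (edgeR). None of 9 trabecular markers was called, Cited1 coming nearest (−0.59, adjusted p 0.0935, edgeR).

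The 18 tested second heart field genes, Isl1 among them, had a median of 0.12, and none was called lower. Tbx1, a T-box factor of pharyngeal and outflow progenitors, was called higher. It ran from 0.482 to 1.08 CPM in wild-type (median 0.773) and from 0.911 to 5.55 CPM in double heterozygous hearts (median 1.35). Its log2 change of 1.55 (SE 0.35, adjusted p 0.026, edgeR) was uneven between sets, with 2.81, 0.74 and 0.33 in sets 2, 5 and 6. The call was lost without wild-type replicates 7, 9 or 10 or double heterozygous replicate 6 (1.33 to 1.45, adjusted p up to 0.0703, edgeR), and without set 2 the change was 0.68 (adjusted p 0.238, edgeR). Gli1, a Hedgehog target, had a log2 change of 1.01 (adjusted p 0.121), Fgf10 −0.46 (adjusted p 0.263) and Fgf8 −0.26 (adjusted p 0.654, edgeR). The 9 tested genes of Isl1 and its LIM complex partners gave 0 calls, with a median of 0.01.

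Cohesin genes gave 1 call besides the targeted Nipbl. Of 15 tested, 2 were called, against 1.92% of all genes: Nipbl was lower and Stag1 higher (0.28, SE 0.07, adjusted p 0.0341, edgeR), which encodes 1 of the alternative cohesin subunits. Stag1 ran from 52.7 to 69.0 CPM in wild-type (median 61.0) and from 61.6 to 99.7 CPM in double heterozygous hearts (median 76.7), and lost its call in 9 of 19 single omissions. The core ring genes Smc1a (−0.06), Smc3 (0.04) and Rad21 (0.05) and Mau2 (0.07), the partner of NIPBL in loading, had adjusted p from 0.617 to 0.797 (edgeR). The median of the list was 0.04.

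**Figure D4:**
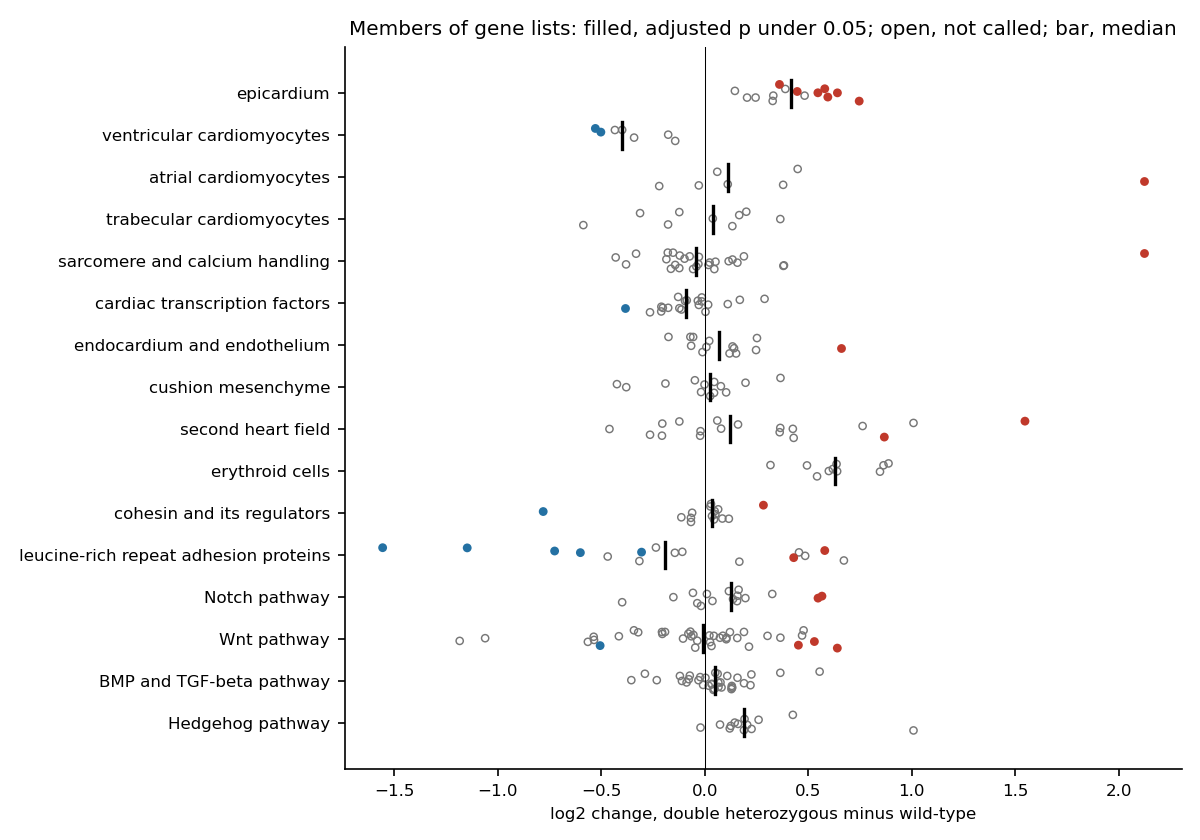
Each point is the log2 change (x axis, double heterozygous minus wild-type) of 1 member of the 16 gene lists on the y axis. Filled points had an adjusted p under 0.05 (red higher, blue lower), open points did not, and bars mark medians, 0.42 for epicardium and −0.40 for ventricular cardiomyocytes.

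The counts in the signalling lists are to be read against the 1.92% of all genes that were called, 1.25% higher and 0.668% lower. In the Notch pathway, 2 of 16 genes were called higher (12.5%), the glycosyltransferase Lfng (0.55, SE 0.13) and the effector Heyl (0.57, SE 0.12), with a list median of 0.13. In the Wnt pathway, where 4 of 38 were called, 3 were higher, Wnt2b (0.45), Wnt9a (0.64) and the secreted protein Dkk3 (0.53), and 1 lower, the Wnt enhancer Rspo3 (−0.51), with a median of −0.01. Dkk3 rose from 123 ± 17.1 (SD, n = 10) to 206 ± 43.5 CPM (SD, n = 9), and Rspo3 fell from 43.7 ± 9.81 (SD, n = 10) to 28.1 ± 4.48 CPM (SD, n = 9). Of 30 semaphorin pathway genes Sema3d and Sema3f (0.51) were called (6.67%), and of 12 endothelin and neuregulin genes Edn2 (1.12). Of 18 retinoic acid genes, the retinoid-induced Rarres1 was called (1.09, SE 0.17), from 0.895 to 2.10 CPM in wild-type to 2.53 to 5.54 CPM without overlap. None of 34 BMP and TGF-beta genes, 22 Fgf genes or 13 Hedgehog genes was called, with medians of 0.05, 0.05 and 0.19. In the endocardial and endothelial list 1 of 14 was called, Sox17 (0.66, SE 0.16), and in the cushion mesenchyme list 0 of 13. The Sox17 difference was 1.58 within set 6, against 0.40 and 0.36 in sets 2 and 5. The only double heterozygous library of set 6 is replicate 7, and without it the fitted change of Sox17 was 0.41 (adjusted p 0.184, edgeR). In fits with 1 library left out, Wnt2b lost its call in 12 of 19, Lfng in 9, Sox17 in 8, Wnt9a, Dkk3, Rspo3 and Sema3f in 3 each, Edn2 in 2 and Heyl in 1.

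Leucine-rich repeat adhesion proteins, cell surface proteins that pair neurons and other cells, held 7 calls among 16 tested (43.8%, against 1.92% of all genes). Of these, 5 were lower and 2 higher. The list's median of −0.19 turned to 0.05 with no set term and to 0.03 with a replicate block in its place, so it gives no direction for the list. The lower genes were Slitrk5, Lrrtm4 (−1.56, SE 0.23), Lrrn3 (−0.72, SE 0.13), Lrrc4b and Flrt3 (−0.30, SE 0.07), and the higher ones Lrrn4 and Flrt2 (0.43, SE 0.10). The list was written with Slitrk5 and Lrrc4b already known to be lower, so its counts are not independent of them. Lrrtm4 ran from 1.14 to 1.99 CPM in wild-type (median 1.64) and from 0.248 to 0.815 CPM in double heterozygous hearts (median 0.638), without overlap. The gene span of Lrrn3 overlaps that of Immp2l, and the span of Flrt3 that of Macrod2, each on the other strand. Exon overlap was not examined, so the counts of Lrrn3 and Flrt3 are uncertain. Of 31 clustered protocadherins, Pcdhb20 (−1.37, SE 0.27) and Pcdhb22 (−1.26, SE 0.23) were called lower. Both are under 2 CPM and belong to a family of near-identical genes, so reads could be split between copies. Flrt2 lost its call in 11 of 19 fits with 1 library left out, Flrt3 in 3, and Pcdhb20 in 1, without wild-type replicate 5.

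Other gene groups are also given against 1.92% of all genes called. Among 22 imprinted genes 3 were called (13.6%): the neighbours Peg10 (0.43, SE 0.10) and Sgce (0.23, SE 0.05) were higher and Cdkn1c, a cell cycle inhibitor, was lower (−0.47, SE 0.11). Cdkn1c fell from 4035 ± 728 (SD, n = 10) to 2902 ± 468 CPM (SD, n = 9), and it was the only 1 of 35 cell cycle genes called (2.86%). Without wild-type replicate 4 its change was −0.31 (adjusted p 0.149, edgeR), and with 2 surrogate variables −0.26. Of 37 collagen genes 4 were called (10.8%): Col8a2 (0.64) and Col16a1 (0.50) were higher and Col13a1 (−0.45) and Col23a1 (−0.42) lower. Col23a1 overlapped fully with wild-type, with 6 of 9 double heterozygous libraries below the wild-type mean. It was at −0.18 with no set term and −0.10 with a replicate block (adjusted p 0.418 and 0.70), and Col13a1 at −0.30 and −0.26 (adjusted p 0.109 and 0.25, edgeR). Of 94 ion channel genes 4 were called (4.26%): Cacnb3 (0.55), Scn10a (0.55) and Kcne1l (0.65) were higher and Cacng6 lower. Of 333 zinc-finger genes with a Zfp symbol, Zfp185 (0.65), Zfp979 (0.79) and Zfp982 (0.41) were higher, and of 33 histone genes H2bu2 (0.87). Zfp979, Zfp982 and H2bu2 belong to families with near-identical members, so their counts are uncertain. The calls of Col16a1, Zfp982 and Scn10a were lost in 14, 13 and 11 of 19 fits with 1 library left out, those of Col23a1, Cdkn1c and Sgce in 9, 7 and 6, and those of Kcne1l, Peg10 and Col13a1 in 4, 3 and 2. None of 23 unfolded protein response genes, 26 low oxygen response genes or 14 immediate early genes was called, with medians of −0.03, −0.00 and −0.02.

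Markers of cells that a dissected heart can carry along were also measured. The 10 tested erythroid genes had a median log2 change of 0.63 and 0 calls, with a summed level from 1887 to 105597 CPM in wild-type (median 10689) and from 1311 to 54077 CPM in double heterozygous hearts (median 15150). This median ran from 0.03 to 1.71 over the settings run. It was 0.20 with no set term, 0.06 with 2 surrogate variables, 0.25 without double heterozygous replicate 3 and 1.44 without wild-type replicate 7. The adult globins Hbb-bt and Hbb-bs were at 0 in all libraries. Macrophage, liver, foregut and neural crest lists gave 0 calls, over 7, 3, 2 and 5 tested genes. Summed foregut markers were at most 18.5 CPM in wild-type and 18.9 CPM in double heterozygous libraries. In the neural list Sox3 was the 1 call among 7. The 79 ribosomal protein genes and the 79 nuclear oxidative phosphorylation genes each had a median of −0.19 and 0 calls, and 6 and 3 of them lay above 0. These medians moved with single libraries. Without wild-type replicate 4 they were 0.02 and −0.03, without double heterozygous replicate 8 −0.35 and −0.33, and without set 5 0.04 and −0.01. With the ribosomal protein level as a covariate 619 genes were called, of which 53.3% were higher, against 65.2% of the 279.

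Genes near the targeted loci were counted separately. Within 5 Mb of Nipbl (chr15:8289824-8465315, RefSeq GRCm38.p6) 0 of 42 tested genes were called, and within the same distance of Isl1 (chr13:116298270-116309688) 0 of 32. Within 25 Mb of Nipbl 4 of 66 were called (6.06%, against 1.92% of all genes), Dap and Cdh10 higher and Atpsckmt and Sdc2 (−0.32) lower. For Isl1 1 of 132 was called (0.758%), Thbs4 (−0.40). By chromosome the share ran from 0.423% on chromosome 17 to 2.81% on chromosome 6.

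The single heterozygotes were measured in the same series, 9 libraries each, and share their wild-type controls with the double heterozygotes, so their values are set side by side without a measure of overlap. All 37 libraries were fitted together for this. Isl1 itself changed by 0.79 in Nipbl +/- hearts (SE 0.19, adjusted p 0.0245, edgeR), against 0.32 in double heterozygous and −0.20 in Isl1 +/- hearts, neither of them called. Slitrk5 changed by −1.09 in double heterozygous, −0.91 in Nipbl +/- and −0.03 in Isl1 +/- hearts. Barx2 changed by 1.58, 1.25 and −0.35 in the same order, Klf14 by −1.19, −1.37 and −0.09, and Mycn by −0.50, −0.47 and −0.27. These 4 genes were called in Nipbl +/- hearts, with SEs of the Nipbl +/- change from 0.08 to 0.20. Among epicardial genes, the changes in the same order were 0.53, 0.31 and −0.01 for Wt1, 0.72, 0.36 and 0.45 for Upk3b, and 0.73, 0.23 and 0.40 for Sema3d. For B3gnt7 they were 0.79, 0.26 and 0.30, and for Tmem151a 0.92, 0.41 and 0.42. Of these 5 genes Wt1 alone was called in Nipbl +/- hearts (SE 0.07, adjusted p 0.0186), while Upk3b (adjusted p 0.111), Sema3d (0.511), B3gnt7 (0.286) and Tmem151a (0.0989) were not (edgeR). None of these 9 genes was called in Isl1 +/- hearts, with adjusted p from 0.308 to 0.991 (edgeR).

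The direct contrast of double heterozygous with Nipbl +/- hearts called 0 of 15046 genes (0%, edgeR). At an unadjusted p under 0.05 there were 1349, and DESeq2 also called 0. B3gnt7 had the difference nearest the threshold among the named genes, 0.53 (SE 0.12, adjusted p 0.335, edgeR). The difference was 0.23 for Wt1 (SE 0.07), 0.36 for Upk3b (SE 0.12), 0.50 for Sema3d (SE 0.16), −0.19 for Slitrk5 (SE 0.12) and −0.47 for Isl1 (SE 0.19). These differences were not called and are not shown to be absent. In the same fit B3gnt7 was called against Isl1 +/- hearts with a difference of 0.50 (SE 0.13, adjusted p 0.0443, edgeR). Against Isl1 +/- hearts 144 genes were called (0.957%, edgeR), with Slitrk5 at −1.06 (SE 0.13), Barx2 at 1.94 (SE 0.21), Wt1 at 0.54 (SE 0.08) and Upk3b at 0.26 (SE 0.12, adjusted p 0.611). This count was 363 without Nipbl_het replicate 2, a library of another genotype that takes part in the joint fit.

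**Figure D5:**
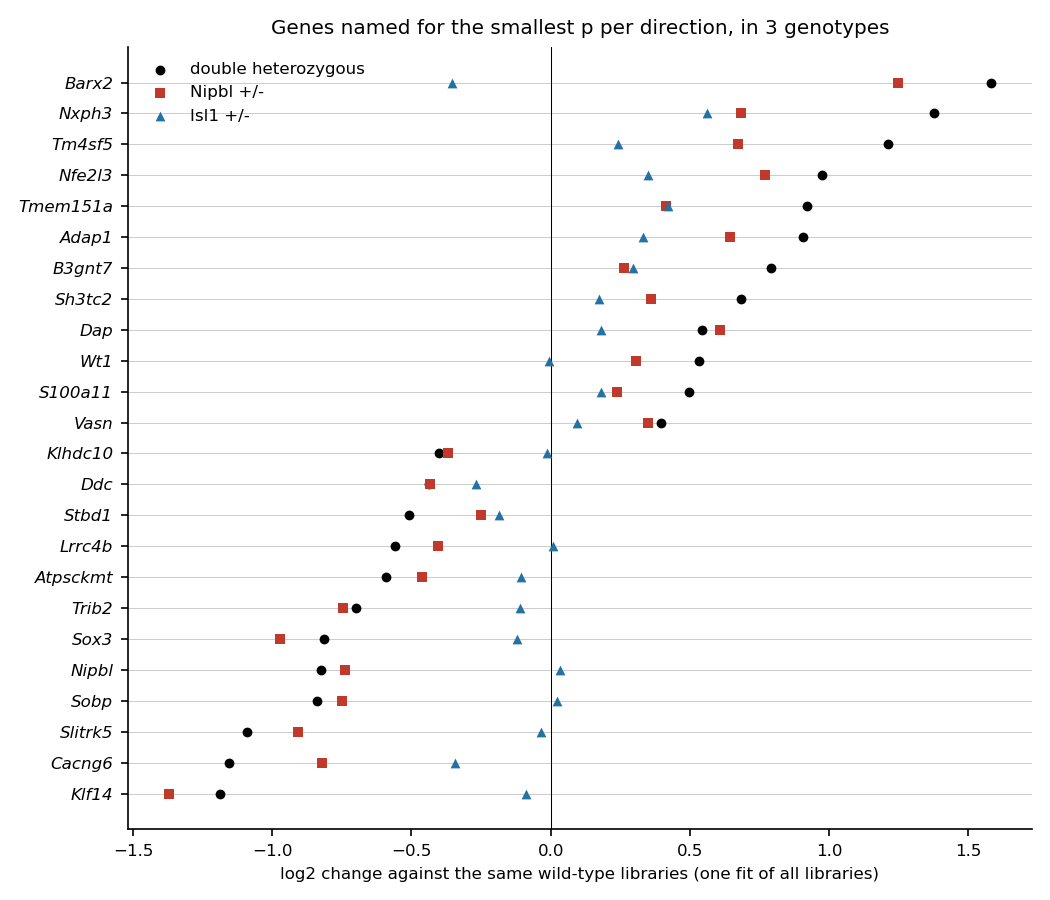
Log2 changes against the same wild-type libraries (x axis) of the 12 genes in each direction named for the smallest p, where log2 CPM averaged 1 or more and with 1 direction in sets 2, 5 and 6 (y axis), from 1 fit of all 37 libraries, with circles for double heterozygous, squares for Nipbl +/- and triangles for Isl1 +/- hearts. Slitrk5 lies at −1.09, −0.91 and −0.03, and Barx2 at 1.58, 1.25 and −0.35.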

How the data were processed

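Per the labels' protocols, heart RNA was isolated with a Monarch kit (New England Biolabs) and sequenced from NEBNext Ultra II libraries. STAR, featureCounts and GRCm38/mm10 are named in the submitters' processing notes, and versions, annotation, strand setting and filters are not given in the sources used here. The authors deposited raw counts for 25239 gene symbols in 37 libraries, with 0 unmapped columns. Genes were filtered with filterByExpr (minimum count 10, total 15), TMM-scaled and fitted over 19 libraries with terms for genotype and set number. Tests were two-sided edgeR quasi-likelihood tests (R 4.3.3, edgeR 4.0.16, limma 3.58.1). The set 7 library is fitted exactly. Residual degrees of freedom were 13 and the common biological coefficient of variation 0.166. P-values were adjusted over 14520 genes. Log2 CPM used a prior count of 2.

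The comparison, 41 gene lists and tests were chosen with earlier results of these data known, so lists are described by counts and medians only. Named genes were Nipbl and Isl1, the 12 with the smallest p and the 5 with the largest change per direction (adjusted p under 0.05, mean log2 CPM at least 1, same direction in sets 2, 5 and 6, no Xist or Y-linked gene), and called list members, of which 1 is not reported here. Promoters came from RefSeq (GRCm38.p6) and overlaps of whole gene spans from GENCODE M21. Duplicates were sought in 81 same-genotype pairs, whose chi-square over its degrees of freedom was at least 7.59, and none was found. Counts were simulated for this comparison over 14520 genes, 200 of them changed. Of genes changed by 0.5 on the log2 scale 67.2% were recovered, 94% at 1 and 100% at 2. Of 182 simulated calls 8 were false. Whether these rates hold for the measured libraries was not tested, and there the 279 calls fell to 3 without set 5. The same is true of the 37 called genes whose log2 CPM averaged under 1. Reads had no molecular identifiers, so counting error alone understates the error. Alternatives used DESeq2 1.42.0, sva 3.50.0, other scalings, filters, covariates and omitted libraries. Python 3.11.15, pandas 2.3.3 and matplotlib 3.10.9 were also used.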

Additional observations from a re-analysis of the deposited data

Results flagged for a closer look

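Single libraries stood apart from the rest of their group in 12 of 148 checks over 74 genes, where the nominal rate of the 95% criterion is about 1 in 20 by chance for independent, normally spread values. Each is given as CPM with the next library of its group. High values were Barx2 at 7.55 in double heterozygous replicate 3 (next 5.42), Cnmd at 10.6 in the same library (next 7.38), Tm4sf5 at 13.1 in double heterozygous replicate 8 (next 8.42), Sox17 at 11.5 in double heterozygous replicate 7 (next 7.38) and Scn10a at 9.41 in double heterozygous replicate 2 (next 6.66). In wild-type hearts Cnmd stood at 3.51 (next 2.38) and Aldh1a7 at 7.69 (next 3.08) in replicate 6, Myh11 at 8.24 (next 4.21) and Isl1 at 12.9 (next 8.73) in replicate 7, and Rspo3 at 66.7 in replicate 2 (next 47.1). Low values were Mycn at 52.4 in wild-type replicate 7 (next 68.2) and Sema3d at 18.0 in double heterozygous replicate 8 (next 27.3).

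Wild-type replicate 7 appears for 3 of these genes. It and double heterozygous replicate 8 are among the 4 libraries with the highest ribosomal protein level, and the part of that level in these values was not tested.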

How the results depend on the processing

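The count of 279 genes was 690 without the set term, 608 with DESeq2, 423 with 2 surrogate variables, 836 in a fit of 36 libraries without the library labelled Nipbl_het replicate 2, and 62, 3 and 131 without sets 2, 5 and 6. All 37 libraries in 1 fit gave 391. Leaving a set out leaves fewer libraries, and for the other settings the cause was not tested. With the ribosomal protein level as a covariate, added after the data were seen, it was 619, and without the 4 libraries highest in that level 232, of which 54.3% were higher. With 1 library left out it ran from 136 to 375, the lowest without double heterozygous replicate 6 (136), wild-type replicate 4 (140), double heterozygous replicate 7 (145) and wild-type replicate 5 (151). The log2 change of Nipbl ran from −0.85 to −0.74 and that of Isl1 from 0.22 to 0.52 in these fits. Both kept their direction and side of the threshold in every setting run. Other scalings, filters, the Xist or erythroid level and sets 1 or 7 left out gave 245 to 311.

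Of 73 named and called genes 39 kept the call whichever library was left out, and 0 reversed. Wild-type replicate 4, when left out, cost 29 of them the call, double heterozygous replicate 6 cost 25, double heterozygous replicate 7 cost 21 and wild-type replicate 5 cost 20. Without set 5, 70 of 72 besides Isl1 and Nipbl lost it. Of the same 72, 21 lost it with a replicate block, 21 without the 4 libraries highest in ribosomal protein genes, 10 with 2 surrogate variables, 5 with no set term, and 0 with DESeq2 or with the ribosomal protein level as a covariate. Replicate numbers did not pair the samples: correlations of same-numbered libraries ran from −0.354 to 0.273 and 2 of 9 exceeded 0.1. With a replicate block in place of the set term 227 genes were called, 162 of them shared with the 279, 78.4% were higher, and the median of the leucine-rich repeat list was 0.03. Against Isl1 +/- hearts the 144 genes became 363 without the library labelled Nipbl_het replicate 2 and 234 with DESeq2. Genes near 1 CPM have the least precise values.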
